A study of Mus musculus with 4 samples.

Results

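The Il1rapl2/Grm8 cluster is one of 134 clusters of neurons in the deposited annotation of nuclei from the posterior hindbrain of mice. The paper's text states another number of neuronal clusters, and that of the deposited table is used throughout. Its members are the nuclei that the authors kept after quality control and labelled with this cluster, 86 of 12539 neurons and of 39461 nuclei in all. The 4 libraries of nuclei were prepared from hindbrain tissue that contains the area postrema and the nucleus tractus solitarius. Control mice, labelled WT, carried the Cre-dependent allele hM3DGq fl/- and the Dre-dependent allele hM4DGi fl/- without a recombinase (2 libraries). AgRP-Gq;POMC-Gi mice carried AgRP-IRES-Cre+/- and POMC-Dre+/- as well, so that the promoters of *Agrp* and *Pomc* decide which cells express the activating receptor hM3DGq and the inhibiting receptor hM4DGi (2 libraries). All mice were on a C57BL/6 background, were 12 to 20 weeks old, received clozapine-N-oxide (CNO), the ligand of both receptors, at 3 mg per kg and were killed 1 h later without food. Control mice thus received CNO too, and mice with only one recombinase were not analysed here. The paper took tissue from male and female mice of both groups. The sources used here give 2 mice per group and say that samples of one condition were pooled. They do not tell which mice went into which library. By the sex-linked transcripts given below, both control libraries and AgRP-Gq;POMC-Gi replicate 1 each held nuclei of both sexes. The libraries therefore cannot be taken as separate single mice. The p values measure only the spread between these libraries, and how much of it lies between mice is not known.

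*Il1rapl2* encodes a transmembrane protein of the interleukin-1 receptor family and is a close relative of *Il1rapl1*, an adhesion protein of excitatory synapses that binds the presynaptic phosphatase encoded by *Ptprd*. *Grm8* encodes the metabotropic glutamate receptor mGlu8, which couples to inhibitory G proteins and commonly sits on axon terminals, where it lowers transmitter release. The nucleus tractus solitarius is the first central relay of vagal sensory fibres, which release glutamate, and it holds both glutamatergic and GABAergic neurons.

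Of its nuclei 13 and 32 came from control replicates 1 and 2, and 22 and 19 from the AgRP-Gq;POMC-Gi replicates 1 and 2. Their unique molecular identifiers (UMIs) added up to 173034, 407956, 345161 and 238931 in the 4 libraries in this order, which is kept below. A median nucleus had 12530.5 UMIs and 4302.5 genes, against 8677 UMIs and 3560 genes in the other 12453 neurons, so a gene was more easily found in this cluster than in an average neuron. Levels are the UMIs of a gene relative to all UMIs of the same nuclei, scaled to a sum of 1000000 (CPM), with mean ± SD over the libraries (n = 4). A gene with no UMI in the cluster may still have had UMIs in up to 3.49% of such nuclei, a limit that covers counting error only. No barcode of the cluster occurred in another library.

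Because clusters are built from expression, differences between the Il1rapl2/Grm8 cluster and other neurons are a description and carry no test. A gene was called higher or lower where the mean levels differed at least 2-fold and the 4 libraries of the cluster did not overlap those of other neurons. Of the 13050 genes considered, which had UMIs in 5% or more of the nuclei on either side, 182 (1.39%) were higher and 564 (4.32%) were lower by this rule. The median log2 ratio of the genes considered was -0.05.

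*Il1rapl2* (ENSMUSG00000059203, chromosome X of GRCm38, 137570608 to 138846946) stood at 844 and 961 CPM in the control libraries, and AgRP-Gq;POMC-Gi replicates had 1680.4 and 1381 CPM. Every one of these values exceeded those of other neurons, which ranged from 382 to 465 CPM. The mean of 1217 ± 386 CPM was 2.83-fold that of other neurons (429 ± 35.4 CPM). *Grm8* (ENSMUSG00000024211, chromosome 6, 27275119 to 28135178) stood at 965, 1373, 1504 and 1000.3 CPM in the 4 libraries. It was 2.50-fold higher than in other neurons (1210.4 ± 269 against 483 ± 34.3 CPM), again with no overlap. *Il1rapl2* was found in 80.2% of the nuclei, in 32.4% of other neurons and in 1.03% of oligodendrocytes, a cell type that should lack it, whose median depth was 2460 UMIs. For *Grm8* these shares were 90.7%, 54.3% and 2.11%. After every nucleus had been thinned to 2000 UMIs, which left out 166 other neurons and 5416 oligodendrocytes but no nucleus of the cluster, *Il1rapl2* was found in 60.5% of cluster members and 23.5% of other neurons, and *Grm8* in 70.9% and 36.7%.

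**Figure D1:**
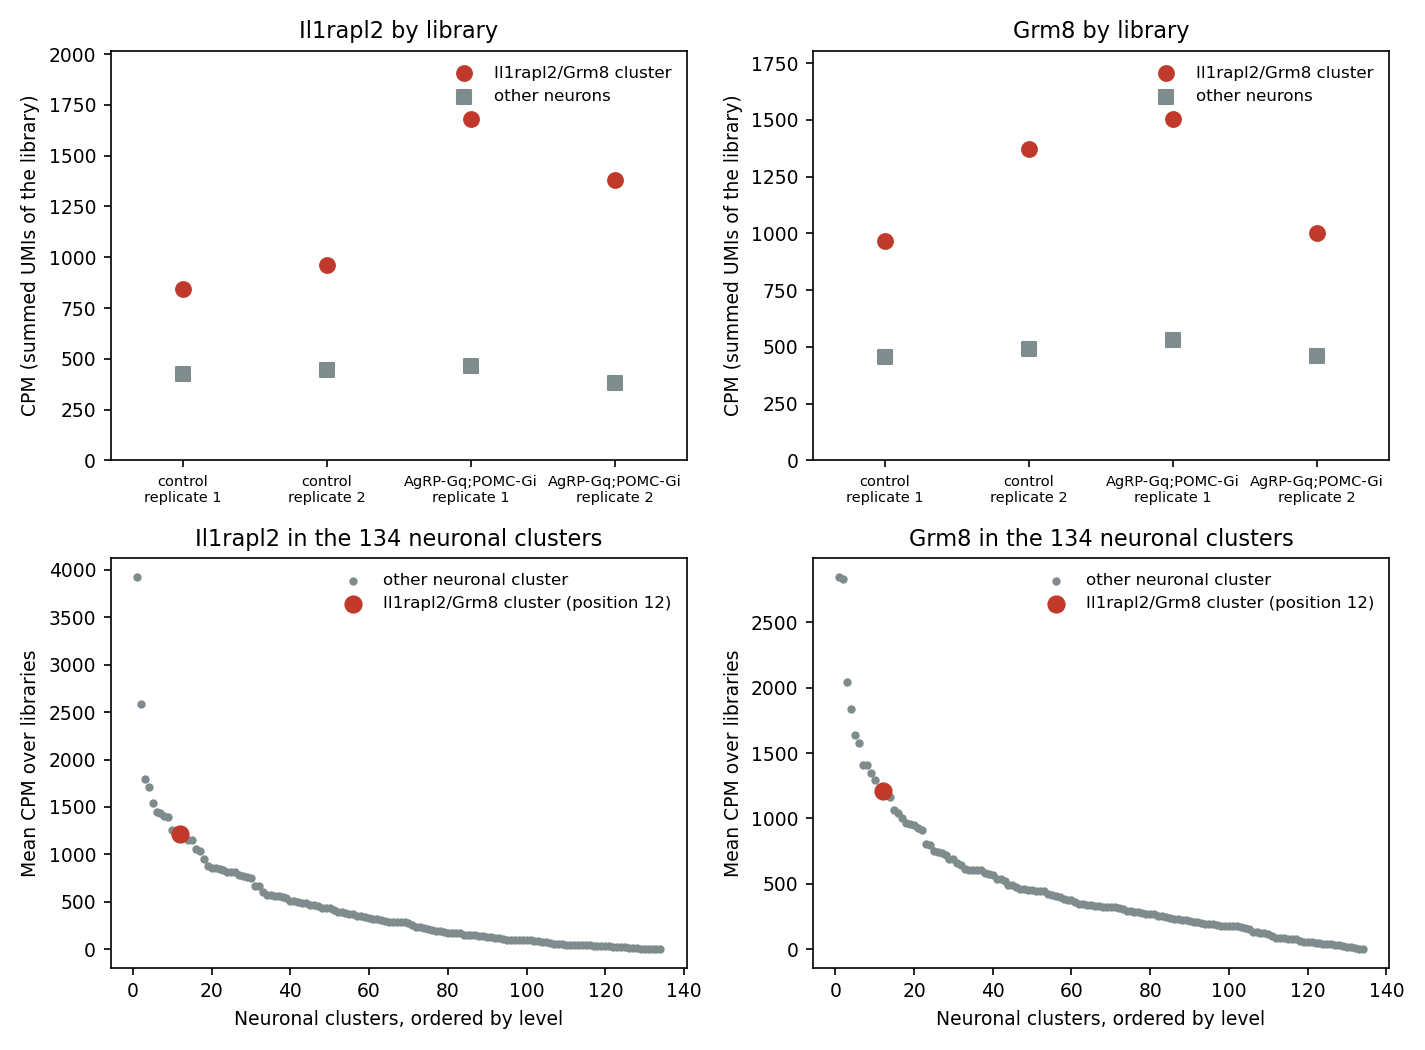
Levels of *Il1rapl2* (left) and *Grm8* (right), in CPM. The upper panels show each library, with the Il1rapl2/Grm8 cluster as circles and all other neurons as squares, and the circles lie above the squares in every library; the lower panels order the mean levels of the 134 neuronal clusters, in which the Il1rapl2/Grm8 cluster takes position 12 for both genes.

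The nuclei were neuronal by *Rbfox3*, *Snap25* and *Meg3*, whose ratios to other neurons were 0.868, 1.00 and 1.09. Both genes of the label were present, but neither set the cluster apart from all others. The Il1rapl2/Grm8 cluster took position 12 of 134 for each of them. *Il1rapl2* was highest in cluster 149:Cartpt/Arhgap28 (3928 CPM), and *Grm8* in cluster 182:Samd3/Cnpy1 (2849 CPM). *Il1rapl2* is part of the label of 6 neuronal clusters and *Grm8* of 1. The combination was frequent within nuclei, since 65 of the 86 had a UMI of both genes, 4 of *Il1rapl2* alone, 13 of *Grm8* alone and 4 of neither. In other neurons both were found together in 19.4% of nuclei.

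The cluster was glutamatergic by its marker genes. *Slc17a6*, which encodes the vesicular glutamate transporter VGLUT2, stood at 191, 137, 104 and 142 CPM in the 4 libraries, all above the 70.4 to 77.9 CPM of other neurons. It was found in 81.4% of the nuclei, in 35.4% of other neurons and in 3.49% of oligodendrocytes. Its ratio of 1.91 to other neurons was below 2-fold, and the cluster took position 29 for it. *Slc17a7* and *Slc17a8*, which encode the other two vesicular glutamate transporters, had 2 UMIs and 1 UMI in the whole cluster.

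Genes of inhibitory transmission were low. *Gad1* and *Gad2*, which encode the enzymes that make GABA, stood at 7.37 ± 5.44 and 8.30 ± 5.64 CPM, against 51.1 and 96.2 CPM in other neurons. *Slc32a1*, the vesicular transporter of GABA and glycine, reached 4.01 ± 3.25 CPM and *Slc6a5*, the neuronal glycine transporter, 5.71 ± 7.05 CPM. All 4 were lower by the rule above, and *Slc6a5* had the lowest ratio (0.0680) of the genes found in at least 25% of other neurons with no overlap of the libraries. The 5 nuclei with a UMI of *Slc32a1* and the 7 with a UMI of *Gad2* all had a UMI of *Slc17a6* too. Shares of nuclei with *Gad2* (8.14%) and *Gad1* (4.65%) may be set against 3.03% and 1.86% in oligodendrocytes, at median depths of 12530.5 and 2460 UMIs. After thinning to 2000 UMIs, *Gad2* was found in 2.33% of the nuclei and 2.19% of oligodendrocytes, and *Gad1* in 1.16% and 1.39%. The cluster then kept 2 UMIs of *Gad2* and 1 of *Gad1*, too few to decide whether either gene was above the share in oligodendrocytes.

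**Figure D2:**
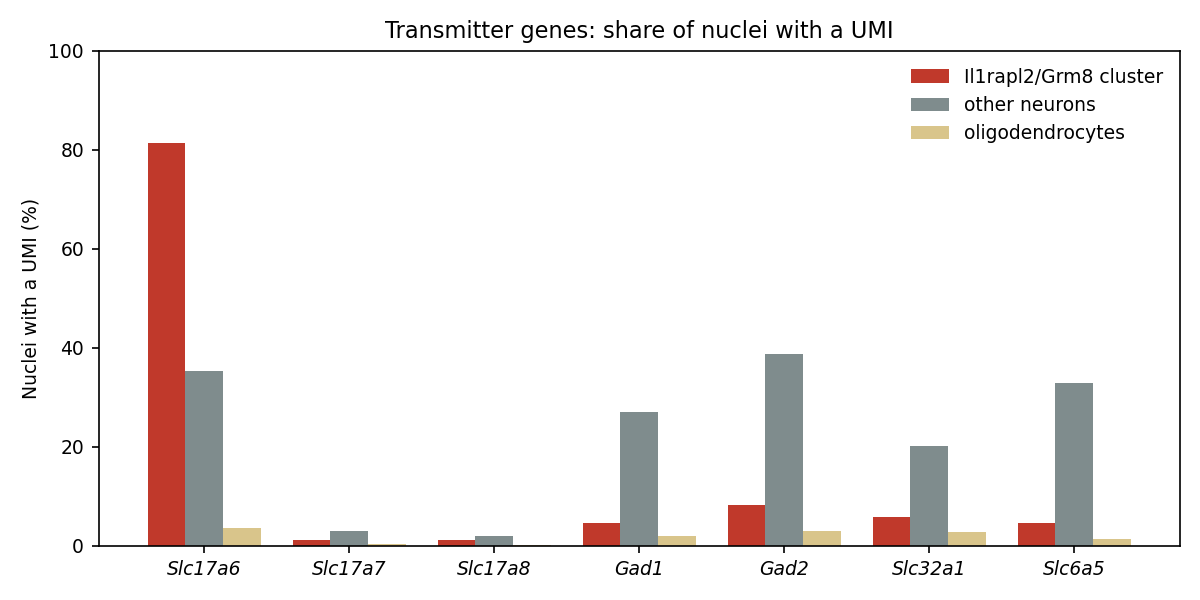
Percent of nuclei with at least 1 UMI of genes of glutamate release (*Slc17a6*, *Slc17a7*, *Slc17a8*) and of GABA and glycine synthesis and transport (*Gad1*, *Gad2*, *Slc32a1*, *Slc6a5*), all libraries together. Bars stand for the Il1rapl2/Grm8 cluster, other neurons and oligodendrocytes; only *Slc17a6* was more frequent in the Il1rapl2/Grm8 cluster than in other neurons.

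Most markers of catecholamine, serotonin and acetylcholine neurons were at or near 0. *Th*, the first enzyme of catecholamine synthesis, had no UMI, *Tph2*, which makes serotonin, had 2, and *Chat*, which makes acetylcholine, had 6 (5.81 ± 5.17 CPM, against 5.23 CPM in other neurons). Of the 14 genes on this list 9 had no UMI in the cluster. The exception was *Slc18a2*, which encodes the vesicular monoamine transporter VMAT2, with 25 UMIs in 20 nuclei. It stood at 11.6, 9.80, 34.8 and 29.3 CPM in the 4 libraries, 0.926-fold of other neurons in the mean. After thinning to 2000 UMIs it was found in 6.98% of the nuclei, 4.02% of other neurons and 2.11% of oligodendrocytes. Markers of several other cell types were scarce, with summed levels of 37.7 to 46.2 CPM for 6 astrocyte genes, 2.90 to 5.78 CPM for 4 mural genes and 0 to 2.90 CPM for 4 fibroblast genes in the 4 libraries. For 6 oligodendrocyte genes the sum was 101 to 208 CPM, and it was 147 to 309 CPM in other neurons of the same libraries. *P2ry12*, a receptor known from microglia, was found in 80.2% of the nuclei (187 ± 27.0 CPM) and made up most of the sum of 163 to 226 CPM for 6 microglia genes. It was also found in 58.5% of other neurons and overlaps *Med12l* on the opposite strand, and whether reads were assigned by strand is not given in the sources used here, whereas *Csf1r*, a receptor that defines microglia, had 2 UMIs in the cluster. The 4 endothelial genes summed to 92.5, 22.1, 20.3 and 0 CPM in the cluster, against 8.17, 10.7, 5.82 and 8.96 CPM in other neurons. Most of this was *Flt1*, an endothelial receptor, which was 9.46-fold higher than in other neurons with overlapping libraries, took position 3 and had 15 of its 25 UMIs in 1 nucleus of control replicate 1.

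*Ttr*, the product of the choroid plexus, differed widely between libraries. In the cluster it stood at 0 and 735 CPM in control replicates 1 and 2 and at 8.69 and 452 CPM in AgRP-Gq;POMC-Gi replicates 1 and 2. Other neurons had 1.50, 1007, 7.52 and 581 CPM in the same order, and the libraries held 2, 436, 6 and 329 choroid plexus nuclei. The whole list of 6 ependymal and choroid plexus genes summed to 5.78, 750.1, 23.2 and 481 CPM in the cluster. Replicate 2 of each group therefore stood apart, and this difference did not run along the groups. *Xist*, the RNA that coats the silenced X chromosome in female cells, stood at 277, 201, 481 and 0 CPM in the cluster, so that none of the 19 nuclei of AgRP-Gq;POMC-Gi replicate 2 had it. In other neurons of that library 2.18% of nuclei had *Xist* and 89.2% had a UMI of 4 Y-linked genes (*Ddx3y*, *Eif2s3y*, *Kdm5d* and *Uty*). The other 3 libraries held nuclei with transcripts of either kind, with *Xist* in 48.2 to 66.9% and Y-linked genes in 29.8 to 45.04% of other neurons. In the cluster 20 of the 22 nuclei of AgRP-Gq;POMC-Gi replicate 1 had *Xist* and 2 had a Y-linked UMI, whereas 18 of the 19 of replicate 2 had a Y-linked UMI. By these transcripts the sexes were mixed unequally over the libraries, and their part in the differences between groups was not tested.

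Leading genes of the cluster were the 20 with the highest ratio to other neurons among those found in 25% or more of its nuclei and with all 4 libraries above those of other neurons. The first were *Gm12128* (5.59-fold, 76.7 ± 27.4 against 13.7 ± 3.10 CPM), *Adam33* (5.15-fold), *Gm12688* (5.06-fold) and *Itgae* (4.77-fold). *Gm12128* (chromosome 11, 37658989 to 37673166) and *Gm12688* are annotated as long non-coding RNAs, *Adam33* encodes a membrane-bound metalloprotease and *Itgae* the αE integrin. *Gm12128* had 116, 61.3, 75.3 and 54.4 CPM in the 4 libraries and had UMIs in 38.4% of the nuclei, against 5.04% of other neurons and 0.392% of oligodendrocytes.

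**Figure D3:**
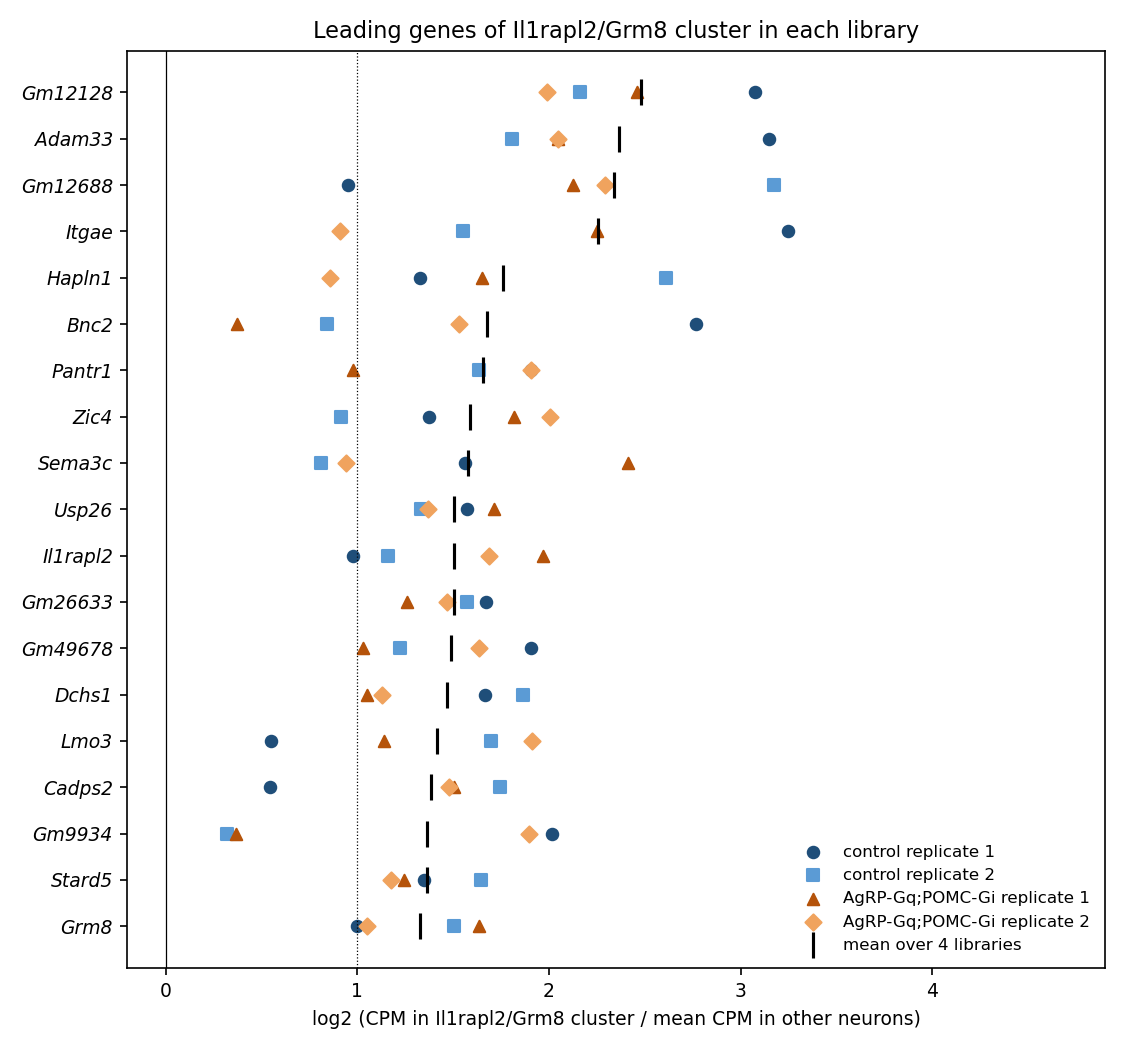
The log2 ratio of the level in the Il1rapl2/Grm8 cluster to the mean of other neurons for 19 of the 20 leading genes, which were chosen with no overlap of the libraries, ordered from top to bottom. Each symbol is 1 library, the bar is the ratio of the means and the dotted line marks a 2-fold difference; all symbols lie right of 0 through this choice, and *Adam33* has control replicate 1 far to the right of the other libraries.

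*Hapln1*, which encodes a link protein of perineuronal nets, was 3.39-fold higher, *Sema3c*, a secreted semaphorin, 2.99-fold and *Dchs1*, a large cadherin, 2.77-fold. *Bnc2*, *Zic4* and *Lmo3*, which encode regulators of transcription, were 3.19-fold, 3.01-fold and 2.67-fold higher. The level of *Bnc2* rested on control replicate 1, with 168 CPM there and 31.9 to 71.2 CPM in the other libraries. Without that library its log2 ratio was 0.96 in place of 1.67, below the 2-fold limit. After thinning to 2000 UMIs both *Bnc2* and *Dchs1* (0.92 each, from 1.67 and 1.47) were below this limit. The log2 ratio of *Itgae* was 1.67 in place of 2.25 without the same library. *Cadps2*, which primes dense-core vesicles for release, stood at 208, 478, 406 and 398 CPM and was 2.61-fold higher. *Stard5*, a lipid-transfer protein, was found in 79.1% of the nuclei and stood at 156, 191, 145 and 138 CPM, 2.57-fold above other neurons. The leading genes also included *Usp26*, *Gm26633*, *Gm49678* and *Gm9934*, with ratios of 2.58 to 2.83.

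The order of levels over the 134 neuronal clusters shows how far these genes were shared. *Pantr1*, a long non-coding RNA (chromosome 1, 42590782 to 42694842), was highest in the Il1rapl2/Grm8 cluster, with 121, 101, 63.7 and 121 CPM and a ratio of 3.15. Its mean of 101.7 ± 27.2 CPM did not differ from the 101.6 CPM of cluster 162:Chrdl1/Kcnh8 beyond this spread. *Itgae* and *Stard5* took position 2, behind cluster 63:Ebf2/Th and cluster 104:Gabra6/Fat2, and *Gm12128* took position 5. The other 16 leading genes took positions 7 to 18. *Pantr1* was also found in 12.8% of oligodendrocytes.

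Within the cluster a nucleus had UMIs of 10 of the 20 leading genes in the median, with a range of 1 to 17. By library the medians were 10, 9, 11 and 10, in the libraries that also served to choose these genes.

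Some of these non-coding genes lie beside genes of transcription factors. *Gm12688* (chromosome 4, 99653607 to 99654983, minus strand) lies 1316 bases from *Foxd3*, a forkhead factor gene on the plus strand. *Foxd3* itself had 7 UMIs in 7 nuclei of the cluster, at 5.78, 7.35, 5.79 and 4.19 CPM, and was 6.80-fold higher than in other neurons (0.850 ± 0.300 CPM). *Pantr1* lies 926 bases from *Pou3f3*, whose level was 2.21-fold that of other neurons and which took position 12. *Gm9934* overlaps *Fam181b* and *Gm42439*, one of the lowest genes, overlaps *Auts2*, each on the opposite strand. *Gm12064* and *Gm2164*, named below, likewise overlap *Bcl11a* and *Pou3f1*. If the counting did not use strand, reads of such partners cannot be told apart where they overlap.

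The 10 lowest genes, among those found in at least 25% of other neurons and with no overlap of the libraries, were *Slc6a5*, *Gad2*, *Pax2*, *Baiap3*, *Gad1*, *Zeb2*, *Tox*, *Gm42439*, *Arpp21* and *Kcnc2*, with ratios of 0.0680 to 0.191. *Pax2*, a transcription factor of inhibitory neurons of the hindbrain and spinal cord, had 8 UMIs in 3 nuclei. These ratios moved with the setting, in either direction. Without AgRP-Gq;POMC-Gi replicate 1 the log2 ratios were lower for *Slc6a5* (-4.87 in place of -3.88), *Pax2* (-6.25 in place of -3.42), *Baiap3* (-4.51 in place of -3.32), *Zeb2* (-3.19 in place of -2.48), *Tox* (-3.30 in place of -2.44) and *Kcnc2* (-3.13 in place of -2.39), and without replicate 2 for *Gad2* (-4.13 in place of -3.53). They were nearer to 0 against the median of the other neuronal clusters for *Pax2* (-0.84, no longer 2-fold), *Gad1* (-1.02 in place of -2.79), *Slc6a5* (-1.42), *Gad2* (-2.28), *Zeb2* (-1.45), *Tox* (-1.53) and *Arpp21* (-1.73 in place of -2.42). After thinning, *Baiap3* (-1.73) and *Gm42439* (-1.68 in place of -2.42) were nearer to 0, whereas *Gad1* (-3.81) and *Arpp21* (-3.17) were farther from it. *Arpp21* stood at 86.7, 137, 122 and 20.9 CPM, against 490.0 ± 62.6 CPM in other neurons, and *Kcnc2*, which encodes the fast-gating potassium channel Kv3.2, at 23.1, 113, 209 and 29.3 CPM, against 489 ± 34.7 CPM.

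Over 12115 genes, the levels of the Il1rapl2/Grm8 cluster, each centred on the mean of the neuronal clusters, correlated most with those of clusters 39:Col19a1/Sv2b (r = 0.445), 88:Il1rapl2/Stpg2 (r = 0.368) and 30:Zfp804b/Npas1 (r = 0.335). These are correlations across genes and are given as a description. Cluster 88, with 109 nuclei, shared the transmitter genes (142 CPM of *Slc17a6*, 3.98 CPM of *Slc32a1*) and the label genes (1148 CPM of *Il1rapl2*, 966 CPM of *Grm8*). Cluster 39, with 175 nuclei, had 32.5 CPM of *Slc17a6*, 198 CPM of *Slc6a5* and 37.4 CPM of *Slc32a1*, so the most similar cluster carried other transmitter genes.

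Most of the 20 leading genes were less than 2-fold above the highest of these 3 clusters. By this measure 4 were at least 2-fold higher (*Gm12128*, *Adam33*, *Gm12688* and *Itgae*) and 3 were lower (*Bnc2*, *Gm26633* and *Lmo3*). Cluster 88 had 83.8 CPM of *Bnc2*, 114.5 CPM of *Lmo3*, 45.5 CPM of *Zic4* and 345 CPM of *Cadps2*, next to 78.7, 94.8, 46.9 and 372 CPM in the Il1rapl2/Grm8 cluster.

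Against the highest of these 3 clusters, the largest ratios among genes found in 25% or more of the nuclei were those of *Cpne4* (4.304), *Bcl11a* (3.90), *Gm12064* (3.79), *Gm12688* (2.74), *Slit3* (2.71) and *Fgf10* (2.56). *Cpne4*, which encodes a calcium-dependent phospholipid-binding copine, stood at 312, 142, 226 and 234 CPM in the Il1rapl2/Grm8 cluster and at 53.1, 9.89 and 44.7 CPM in clusters 39, 88 and 30. *Bcl11a*, a zinc-finger transcription factor, stood at 69.4, 142, 168 and 138 CPM, against 32.3, 29.6 and 33.2 CPM. *Fgf10*, a growth factor, stood at 104, 142, 110.1 and 100.4 CPM and *Slit3*, an axon guidance ligand, at 249, 248, 269 and 209 CPM. *Adam33*, *Gm12128*, *Galnt18* and *Gm2164* completed the 10, with ratios of 2.40 to 2.50. *Bcl11a* was at position 46 of all neuronal clusters and only 1.25-fold above other neurons, so its level differed from the 3 most similar clusters far more than from neurons at large.

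The gene lists below were read by counts beside those of all genes considered, of which 4.32% were lower and 1.39% higher. Of all 32285 genes 14385 had no UMI in the cluster. Of the 10 higher and 83 lower genes of all lists, cell type markers included, 8 and 80 stayed on the same side of other neurons after thinning, and the exceptions were *Grm2* and *Scn4b* among the former and *Btg1*, *Bdnf* and *Mecom* among the latter. This count asks for the side only, not for the 2-fold limit. Lower genes left without a UMI in the cluster, such as *Rorb* and *Hoxb6*, counted as kept, so it does not show that such calls hold at equal depth. Of 8 metabotropic glutamate receptors 7 were considered, and *Grm8* and *Grm2* (2.70-fold, 5 UMIs in the cluster) were higher. No UMI of *Grm2* was left in the cluster after thinning. *Grm7*, the other widespread presynaptic receptor of the same group, stood at 2095 ± 167 CPM, 1.16-fold that of other neurons, and *Grm4* at 1.33-fold. The median log2 ratio of this list was 0.21. Of 17 ionotropic glutamate receptor genes none was higher and *Gria1*, an AMPA receptor subunit, was lower (0.471), with a median log2 ratio of -0.13. *Grik4*, a kainate receptor subunit, had the highest ratio (1.48).

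Receptors of inhibitory transmitters were mostly below other neurons. Of the 17 genes for GABA and glycine receptors that were considered, 7 were lower and none was higher, and the median log2 ratio was -0.44. Among all genes considered 4.32% were lower and 1.39% higher. *Gabrg3* stood at 282 ± 40.9 CPM, against 805 CPM in other neurons, *Gabra2* at 68.3 ± 30.5 against 148 CPM and *Glra3*, a glycine receptor subunit, at 22.0 ± 11.4 against 112.4 CPM. *Glrb*, which anchors glycine receptors, had 204 ± 34.4 CPM, 1.12-fold that of other neurons.

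**Figure D4:**
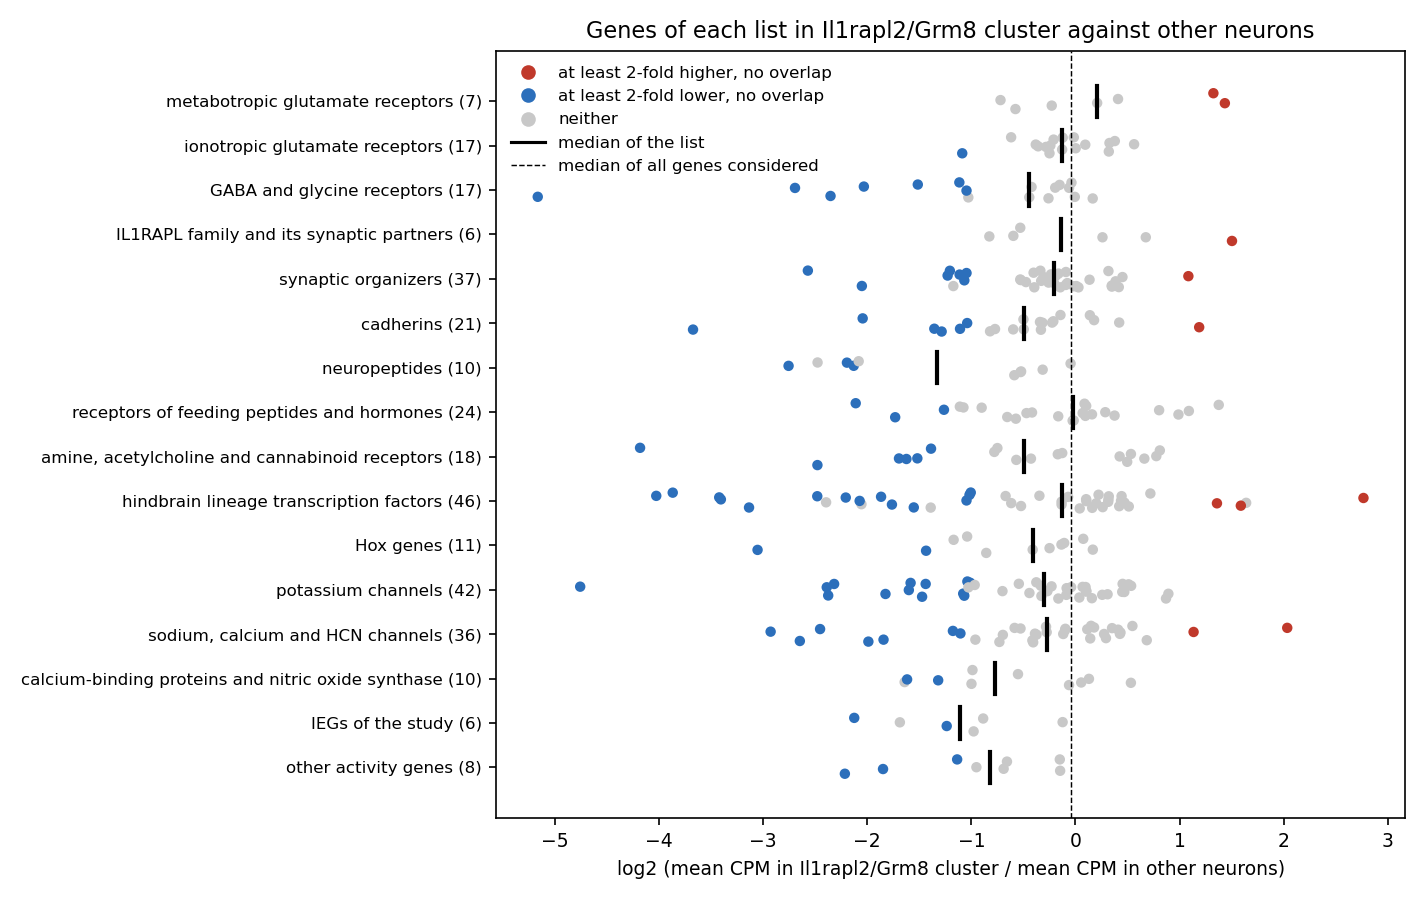
The log2 ratio of the mean level in the Il1rapl2/Grm8 cluster to that in other neurons for genes of 16 lists, with the number of genes considered in parentheses. Each point is a gene, coloured where it was at least 2-fold higher or lower with no overlap of the libraries; solid bars are list medians and the dashed line is the median of all genes considered (-0.05), and, as among all genes considered, more were lower than higher in every list other than metabotropic glutamate receptors and the IL1RAPL family.

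Of the IL1RAPL family and its partners only *Il1rapl2* was higher. *Il1rapl1* was found in all 86 nuclei at 2594 ± 223 CPM, 1.197-fold that of other neurons. *Ptprd*, the presynaptic partner, stood at 5853 ± 1396 CPM, a ratio of 1.60. The related *Ptprs* and *Ptprf* had ratios of 0.693 and 0.661.

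Of 37 further synaptic organizers 1 was higher and 7 were lower. The former was *Tenm2*, a teneurin that binds latrophilins, with 4664, 4341, 4873 and 5646 CPM and a ratio of 2.12. It was also found in 59.4% of oligodendrocytes. *Nrxn3* (0.433), *Adgrl2*, a latrophilin (0.427), and *Cntnap5c* (0.241) were lower. Of 21 cadherins *Pcdh9* was higher, with 9305, 11259, 10978 and 9953 CPM and a ratio of 2.28, at position 6, and 6 were lower, among them *Cdh6* (0.243), *Pcdh17* (0.391) and *Cdh9* (0.410). *Pcdh9* was also found in 99.9% of oligodendrocytes. After thinning its ratio to other neurons was 2.48.

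Among ion channels more genes were below than above other neurons, as among all genes considered (4.32% lower and 1.39% higher). None of the 42 potassium channel genes considered was higher and 13 were lower. *Kcna1* and *Kcna2*, which encode Kv1.1 and Kv1.2, channels that hold back repetitive firing, had ratios of 1.86 and 1.83 and missed the 2-fold limit, at positions 11 and 6. *Kcnk2* (0.201), *Kcnmb2* (0.193) and *Kcnq3* (0.360) were lower. Of 36 sodium, calcium, HCN and TRP channel genes 2 were higher, *Trpm8*, the cold-sensing channel (4.09-fold, 10 UMIs, position 2), and *Scn4b*, a sodium channel subunit (2.19-fold). After thinning the cluster kept 1 UMI of each, and the ratio of *Scn4b* was 0.755. A further 8 were lower, among them *Trpm3* (0.252) and *Scn3a* (0.465). *Scn1a* stood at 688 ± 77.3 CPM, a ratio of 1.46, and took position 4.

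No neuropeptide gene was higher. Of 42 listed 10 were considered, 3 were lower (*Tac1*, *Adcyap1* and *Cck*) and 20 had no UMI in the cluster, *Gcg*, *Pomc* and *Pdyn* among them. Among all 32285 genes 14385 had none there. *Penk*, the precursor of enkephalins, stood at 41.5 ± 16.2 CPM and *Sst* at 21.0 ± 9.65 CPM, 0.968-fold and 0.696-fold of other neurons. *Agrp* had 70.9 ± 23.5 CPM in the cluster and 88.2 CPM in other neurons, with UMIs in 51.2% and 50.8% of nuclei, respectively, and in 4.66% of oligodendrocytes. After thinning these shares were 9.30%, 15.5% and 3.55%. The paper places AgRP neurons in the arcuate nucleus of the hypothalamus. Where the *Agrp* UMIs of hindbrain neurons come from was not tested, and they do not show that these neurons carried the receptor.

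Of 57 receptors of feeding peptides and hormones 24 were considered and 24 had no UMI in the cluster, next to 14385 of all 32285 genes. The receptors without a UMI included *Mc4r* and *Mc3r*, the central melanocortin receptors, *Glp1r*, *Gfral*, *Npy2r* and *Ghsr*, and for each of them the limits above apply. *Hcrtr2*, an orexin receptor (0.232), *Oprm1*, the µ-opioid receptor (0.417), and *Glp2r* (0.301) were lower, and none was higher. *Prlr*, the prolactin receptor, had the highest ratio (2.13, 59.7 ± 37.4 CPM), followed by *Oprd1*, the δ-opioid receptor (1.98), and *Tacr1*, the substance P receptor (1.74), but their libraries overlapped those of other neurons. *Lepr* stood at 21.6 ± 10.9 CPM (1.22-fold). Among receptors of amines, acetylcholine and cannabinoids none was higher and 6 of 18 were lower, including *Chrm3* (0.325) and *Htr1f* (0.309), while *Htr4* had the highest ratio (1.71).

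Beside 1.39% higher and 4.32% lower among all genes considered, transcription factors of hindbrain lineages showed 3 higher and 16 lower genes of 46. Among those higher were *Foxd3* and *Zic4*, and *Zic1*, the genomic neighbour of *Zic4*, had a ratio of 1.43. *Zfhx3* (106 ± 59.3 against 489 CPM), *Zfhx4* (0.238), *Pbx3* (0.341), *Rorb* (0.0685), *Foxp2* (0.0944) and *Lmx1b* (0.179) were lower. A further 32 of the 96 listed had no UMI, among them *Lbx1*, *Tlx3*, *Phox2a*, *Ptf1a* and *Atoh1*. Of 11 Hox genes none was higher, *Hoxb4* and *Hoxb6* were lower, and *Hoxa3* (1.05), *Hoxb3* (0.911) and *Hoxc4* (0.752) were near the level of other neurons. Of 10 genes for calcium-binding proteins and nitric oxide synthase 2 were lower, *Calb2* and *Necab1*.

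The share of the cluster among neurons asks whether as many of its nuclei were found in both groups. It was 0.526% (exact 95% Clopper-Pearson interval 0.281 to 0.898) and 1.17% (0.801 to 1.65) in control replicates 1 and 2, and 0.595% (0.373 to 0.900) and 0.522% (0.315 to 0.815) in those of AgRP-Gq;POMC-Gi. Control replicate 2 stood above the other 3, and the groups overlapped. The means were 0.848 ± 0.455% and 0.559 ± 0.0515% (SD, n = 2 each), a difference of -0.289 percentage points (AgRP-Gq;POMC-Gi minus control), with p = 0.667 in a two-sided exact permutation test, of which the smallest possible p is 0.333. Without control replicate 2 the difference was 0.0325 percentage points. Neurons were 2470 of 9725 and 2736 of 10051 kept nuclei in control, and 3696 of 9723 and 3637 of 9962 in AgRP-Gq;POMC-Gi, so the base differed by group. Of all kept nuclei the cluster made up 0.134% and 0.318% in control and 0.226% and 0.191% in AgRP-Gq;POMC-Gi.

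The comparison of the groups within the cluster asks whether the genes of these neurons differ 1 h after CNO between mice with and without the receptors. By the quasi-likelihood test of edgeR on UMIs summed per library, 2 of 12591 genes (0.0159%) passed a Benjamini-Hochberg adjusted p of 0.05, both higher in AgRP-Gq;POMC-Gi, and 613 had an unadjusted p under 0.05. Fewer nuclei that express a gene and less RNA of it per nucleus cannot be told apart in such sums, and so the number of nuclei is given beside them.

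*Ptprk*, which encodes a receptor-type tyrosine phosphatase (chromosome 10, 28074820 to 28597397), had 16, 45, 114 and 54 UMIs in the 4 libraries. These are 92.5 and 110.3 CPM in control against 330.3 and 226 CPM in AgRP-Gq;POMC-Gi. On the log2 scale the groups differed by 1.53 (SE 0.30, edgeR adjusted p = 0.00445). The UMIs lay in 2, 9, 11 and 8 nuclei, with at most 9, 15, 25 and 23 in 1 nucleus. Other neurons had 171, 181, 181 and 174 CPM, so the control sums of the cluster lay below and its AgRP-Gq;POMC-Gi sums above them. *Ptprk* had UMIs in 34.9% of cluster members and in 90.3% of oligodendrocytes. The summed level of the 6 oligodendrocyte genes in the cluster was 208, 203, 101 and 151 CPM in the 4 libraries, and the part of oligodendrocyte RNA in the difference was not tested.

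*Gm20754*, a long non-coding RNA (chromosome 3, 73066316 to 73594830), had 0, 11, 44 and 19 UMIs in the 4 libraries, in 0, 4, 6 and 4 nuclei. Its level was 0 and 27.0 CPM in control against 127 and 79.5 CPM, which edgeR fitted as 2.59 on the log2 scale (SE 0.46, adjusted p = 0.000539). Without control replicate 2 the fitted value was 7.78, since control replicate 1 had no UMI, and such a fit gives no bound. A single nucleus held 18 of the 44 and another 14 of the 19 UMIs. Other neurons had more of it in every library, 166, 172, 191 and 194 CPM.

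Neither call held under all settings, although both genes kept their direction in each of them. DESeq2 called no gene, with 60 at an unadjusted p under 0.05, and with filterByExpr of edgeR both genes had an adjusted p of 0.154. The edgeR adjusted p of *Ptprk* was 0.430 without control replicate 1, 0.142 without control replicate 2, 0.531 without replicate 1 of AgRP-Gq;POMC-Gi and 0.0702 with the replicate number as a block. That of *Gm20754* was 0.145 without control replicate 1 and 0.299 without replicate 1 of AgRP-Gq;POMC-Gi. The number of genes called was 1 without control replicate 1, 7 without control replicate 2, and 8 and 21 without replicates 1 and 2 of AgRP-Gq;POMC-Gi.

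Of the genes of the label, *Il1rapl2* was higher in AgRP-Gq;POMC-Gi by 0.85 on the log2 scale (SE 0.26), which did not pass (edgeR adjusted p = 0.388). *Grm8* overlapped between the groups (0.19, SE 0.26, edgeR adjusted p = 0.988). None of the lists above held a gene that passed. Median log2 differences of the 7 metabotropic and 17 ionotropic glutamate receptors tested were 0.19 and 0.14, and that of 16 GABA and glycine receptors was 0.10, next to 0.01 for all genes tested. The lowest median among the neuronal lists of 5 or more tested genes was that of 23 receptors of feeding peptides and hormones (-0.38).

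**Figure D5:**
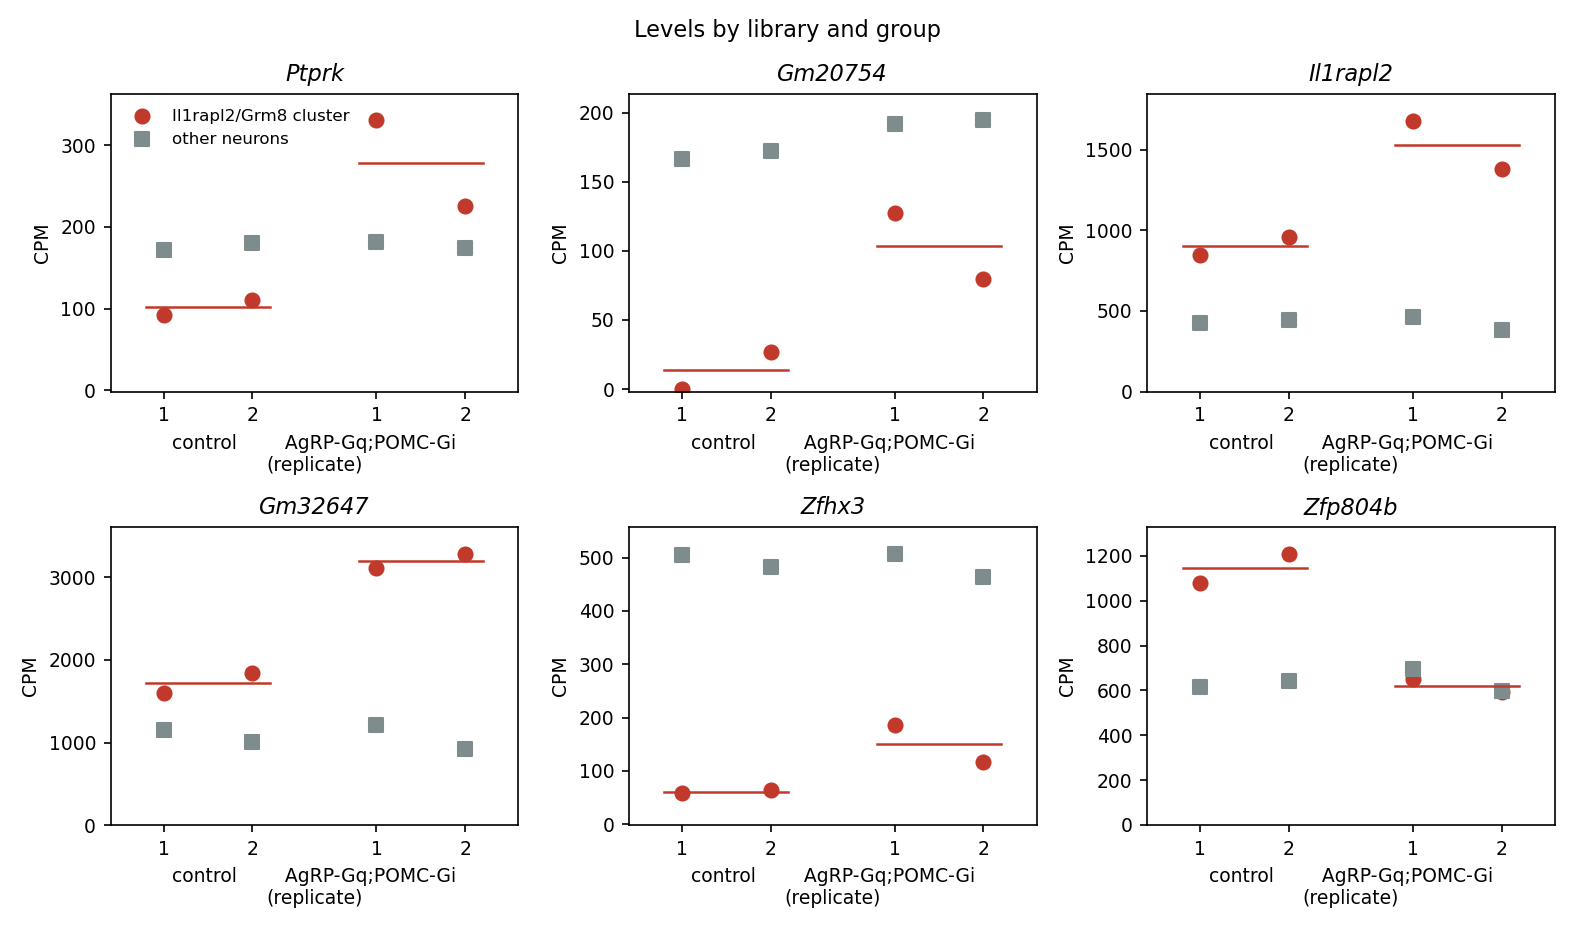
Levels (CPM) of 6 genes in each library, for the Il1rapl2/Grm8 cluster (circles, with lines at the group means) and other neurons (squares). *Ptprk* and *Gm20754* passed the edgeR test in the cluster, and *Il1rapl2*, *Gm32647*, *Zfhx3* and *Zfp804b* did not.

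Whether the group difference in the cluster differed from that in other neurons was tested by the interaction of group and cluster. No gene of 12591 (0%) passed in edgeR, 535 had an unadjusted p under 0.05, and DESeq2 called none either. The 5 smallest p values were those of *Ptprk* (1.44 on the log2 scale, SE 0.27, edgeR adjusted p = 0.128), *Gm20754* (2.34, SE 0.49), *Gm32647*, *Zfp804b* and *Zfhx3*. Genes chosen by p value tend to separate the groups, so the lack of overlap in the levels below is no further support. *Gm32647* stood at 1595 and 1843 CPM in control against 3109 and 3281 CPM, and its interaction was 0.93 (SE 0.20). *Zfp804b*, a zinc-finger gene, went the other way, with 1081 and 1208 against 649 and 594 CPM (-0.91, SE 0.20). The edgeR adjusted p was 0.230 for *Gm20754*, *Gm32647* and *Zfp804b*. *Zfhx3*, a homeobox factor, stood at 57.8 and 63.7 CPM against 185 and 117 CPM (edgeR adjusted p = 0.503). *Ptprk* and *Gm20754* did pass the interaction test with no filter on genes (edgeR adjusted p of 0.000879 and 0.000826), with filterByExpr (0.00212 and 0.00152) and with the replicate block (0.0170 and 0.00962). They also passed without control replicate 2 (0.0276 and 0.000552) and without replicate 2 of AgRP-Gq;POMC-Gi (0.00184 and 0.00108), but not without either replicate 1.

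Of the 10 immediate early genes (IEGs) that the study used as a sign of recent activity, all but *Homer1* were scarce in this cluster, with at most 11 UMIs each. *Homer1* was found in 53.5% of the nuclei and 41.1% of other neurons, at 61.2 ± 20.6 against 66.7 ± 6.03 CPM. *Fosl2* and *Nr4a3* had no UMI in it, *Fos* had 1, *Junb* 2 and *Gem* 3, and these 5 were not tested. Both UMIs of *Junb* and 2 of the 3 of *Gem* were in control replicate 1, and the other UMI of *Gem* and that of *Fos* were in AgRP-Gq;POMC-Gi replicate 1. None of the 6 that were considered against other neurons was higher, *Btg1* (0.424) and *1700016P03Rik* (0.229) were lower, and the median log2 ratio was -1.11. After thinning, *Btg1* was on the other side of other neurons (1.201, with 5 UMIs left in the cluster). Of 8 further activity genes considered 3 were lower, *Vgf*, *Scg2* and *Bdnf*, of which *Bdnf* had a ratio of 1.15 after thinning, with 2 UMIs left.

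Between the groups, 5 IEGs were tested in the cluster and none passed. *Homer1*, a scaffold of glutamate receptors, had 6, 28, 20 and 20 UMIs (0.36 on the log2 scale, SE 0.40, edgeR adjusted p = 0.988), and *Nr4a1*, an orphan nuclear receptor, had 1, 0, 3 and 4. *1700016P03Rik*, the host transcript of *Mir212* and *Mir132*, had no UMI in either control library and 5 and 2 in those of AgRP-Gq;POMC-Gi, in 7 nuclei with 1 UMI each. Set against 3 UMIs over the control group, its level would be 2.32-fold higher. That value takes the 7 UMIs of AgRP-Gq;POMC-Gi as exact, so it is no lower bound. The edgeR adjusted p of the gene was 0.653. *Btg1* had 1, 2, 4 and 4 UMIs, and *Jun* 0, 4, 1 and 2. The log2 fold change was above 0 for 4 of the 5 genes tested, with a median of 1.42, or 1.21 with *1700016P03Rik* set against 3 control UMIs. These values leave out the 5 genes with the fewest UMIs and rest on 74 UMIs of *Homer1* and on 7 to 11 of each other gene. Genes were admitted by nuclei of both groups together, and *1700016P03Rik*, *Nr4a1* and *Btg1* had most of their UMIs in AgRP-Gq;POMC-Gi. *Gem* and *Junb*, with most of theirs in control, were not admitted, so the filter shaped this count and median.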

How the data were processed

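Nuclei of the posterior hindbrain were sequenced with the 10x Genomics 3′ assay. The authors aligned reads and counted UMIs with Cell Ranger 7.0.0 on GRCm38 and used Seurat 4.3.0, per the submitters' processing notes, and deposited a matrix of UMI counts for each library. The authors also deposited a table of nuclei with the mitochondrial percent, the nuclei kept, clusters and cell types, which was taken over without clustering again. Doublets had been called by the authors, and no further caller was run. Clusters came from an embedding without IEGs, per the methods.

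UMIs were summed per library over the Il1rapl2/Grm8 cluster and over the other neurons. Group differences and the interaction (with library terms) were tested with edgeR 4.0.16 (TMM) in R 4.3.3, after leaving out genes found in under 5% of cluster members, and p values were adjusted by Benjamini-Hochberg. Each SE given with an edgeR log2 value is its absolute value divided by the square root of the F statistic. It is thus derived from the test and is no separate measure of precision. Alternatives were no TMM factors, DESeq2 1.42.0, no filter, filterByExpr, a replicate block and each library left out. The test scripts were tried on simulated data. Positions were taken from GENCODE M21 (GRCm38), which held 32235 of the 32285 genes. Python 3.11.15 with numpy 2.4.6, pandas 2.3.3, scipy 1.17.1 and matplotlib 3.10.9 was used for the rest.

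The members, gene lists and tests were chosen with earlier results of these data known. The genes named were the 2 of the label, the 20 highest and 10 lowest by ratio with no overlap of the libraries, the 10 highest against the 3 most similar clusters, list members with at least 20 UMIs and the highest ratios, those past the threshold or, where none passed, the 5 smallest p values, and the 10 IEGs. Certain genes are not reported here. Some list members with fewer UMIs or low ratios, *Pou3f3*, *Xist*, the Y-linked genes and the interaction's first genes were added after their values were seen.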

Additional observations from a re-analysis of the deposited data

Results flagged for a closer look

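Over the 4 libraries of the Il1rapl2/Grm8 cluster, taken as 1 group, *Adam33* had 1 library far from the other 3. It was control replicate 1, which held 13 nuclei of the cluster. *Adam33* stood at 80.9 CPM there and at 31.9 to 37.7 CPM in the others, with UMIs in 9 of the 13 nuclei and at most 3 in 1 nucleus. It was 1 of 26 genes examined, and chance alone marks about 1 in 20 such groups.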

How the results depend on the processing

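Calls between the groups depended on the settings. In place of 2 genes, edgeR called 4 without TMM factors, 0 with filterByExpr and 1 with the replicate block, DESeq2 called 0, and leaving out a library gave 1 to 21, with 1 library against 2. The interaction gave 2 genes with no filter, with filterByExpr and with the replicate block in place of 0, and 1 to 16 with a library left out. The cause was not tested. The replicate numbers were not taken to pair the libraries, since the labels tie nothing to them. Deviations of the cluster's sums from the group means correlated by -0.03 over 12591 genes. Sums of so few nuclei are noisy, so this value cannot decide the pairing. Replicate 2 of each group shared the higher level of *Ttr* and the higher number of choroid plexus nuclei. *Jun* changed sign in the group difference (-0.29) under DESeq2 (0.0536), with the replicate block (0.15) and between -0.98 and 3.54 with a library left out, and in the interaction (-0.19) likewise, to 0.0531, 0.18 and between -0.87 and 9.65; the highest values are those against control replicate 1 alone, which had no UMI of it. The difference in share was -0.61 to 0.0325 percentage points with a library left out. Against the median of the other neuronal clusters the log2 ratio rose to 2.09 for *Il1rapl2* (from 1.50) and to 1.90 for *Grm8* (from 1.32), and it kept its sign in all settings run. Other leading genes also rose in this setting, *Bnc2* to 6.80 (from 1.67), *Gm12128* to 5.10 (from 2.48) and *Adam33* to 3.46 (from 2.37), whereas low genes came nearer to 0, *Pax2* to -0.84 (from -3.42), *Slc6a5* to -1.42 (from -3.88) and *Gad1* to -1.02 (from -2.79). The depth of 86 nuclei limits genes of few UMIs, and the smallest difference that could be found in them was not measured.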
